A study of Sus scrofa with 12 samples.

Results

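Fatty acid oxidation is the route by which muscle fibres burn long-chain fatty acids inside mitochondria. CPT1B, on the outer mitochondrial membrane, joins the fatty acid to carnitine so that it can enter. Inside, an acyl-CoA dehydrogenase, a hydratase, a second dehydrogenase and a thiolase shorten the chain in repeated rounds, and an isomerase, ECI1, prepares unsaturated chains for this cycle. PPARA is a nuclear receptor that binds fatty acids and is known to switch on many of these genes in liver, heart and muscle. Slow, oxidative fibres are known to be richer in these enzymes than fast fibres.

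The transcripts described here are those of 7 such enzymes and of PPARA in pig muscle after slaughter. They were taken as every probe set whose single annotated symbol was CPT1B, ACADVL, ACADM, HADHA, HADHB, ACAA2, ECI1 or PPARA. All 8 genes were found among the 6765 genes with a symbol, with 12 of the 24123 probe sets of the array, 10 for the enzymes and 2 for PPARA. HADHB had 3 probe sets and ACADVL and PPARA had 2 each, so probe sets of 1 gene are repeated readings of that gene. They are numbered by falling mean brightness.

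The tissue was the semimembranosus, a hind leg muscle, of 3 female commercial hybrid pigs of about 160 kg, which came from a single farm and were stunned with CO2 at 87%. Each pig gave 1 portion of the same muscle at 20 min, 2 h, 6 h and 24 h after death while the carcass was cooled to 4 °C, so each time has n = 3 and the pigs are repeated over the times. The 20 min portion was itself taken after death and served as the starting point. No groups differ in genotype, breed, diet or treatment per the labels, and the 3 animals limit the precision of every comparison.

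Values are log2 intensities, on which a difference of 1 is a doubling of signal. Array medians lay between 5.89 and 5.94, and pairs of arrays correlated over probe sets with r between 0.986 and 0.997. Of 12 skeletal muscle fibre markers, 9 were on the array, with a list mean between 14.08 and 14.17 on all 12 arrays, and each was brighter than at least 99.6% of probe sets. The arrays had been brought to 1 common distribution before deposit, so a change that moved all transcripts alike cannot be seen. In whole muscle, fewer fibres of a type and less RNA per fibre cannot be told apart.

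All 10 enzyme probe sets had higher means at 2 h, 6 h and 24 h than at 20 min, by modest amounts, where 50%, 48.2% and 52% of all probe sets had higher means, and none passed the test over all probe sets. The median log2 change of the enzyme probe sets was 0.26 at 2 h, 0.34 at 6 h and 0.33 at 24 h, where the median of all 23999 tested probe sets was 0, -0.006 and 0.008. PPARA, whose signal was dim, was higher at 6 h in its brighter probe set and back near the 20 min level at 24 h, again without passing. Its other probe set had a change of -0.15 at 6 h. The test was limma's, with time and pig in 1 model of 12 arrays and p-values adjusted by Benjamini-Hochberg over all tested probe sets, at a threshold of 0.05.

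**Figure D1:**
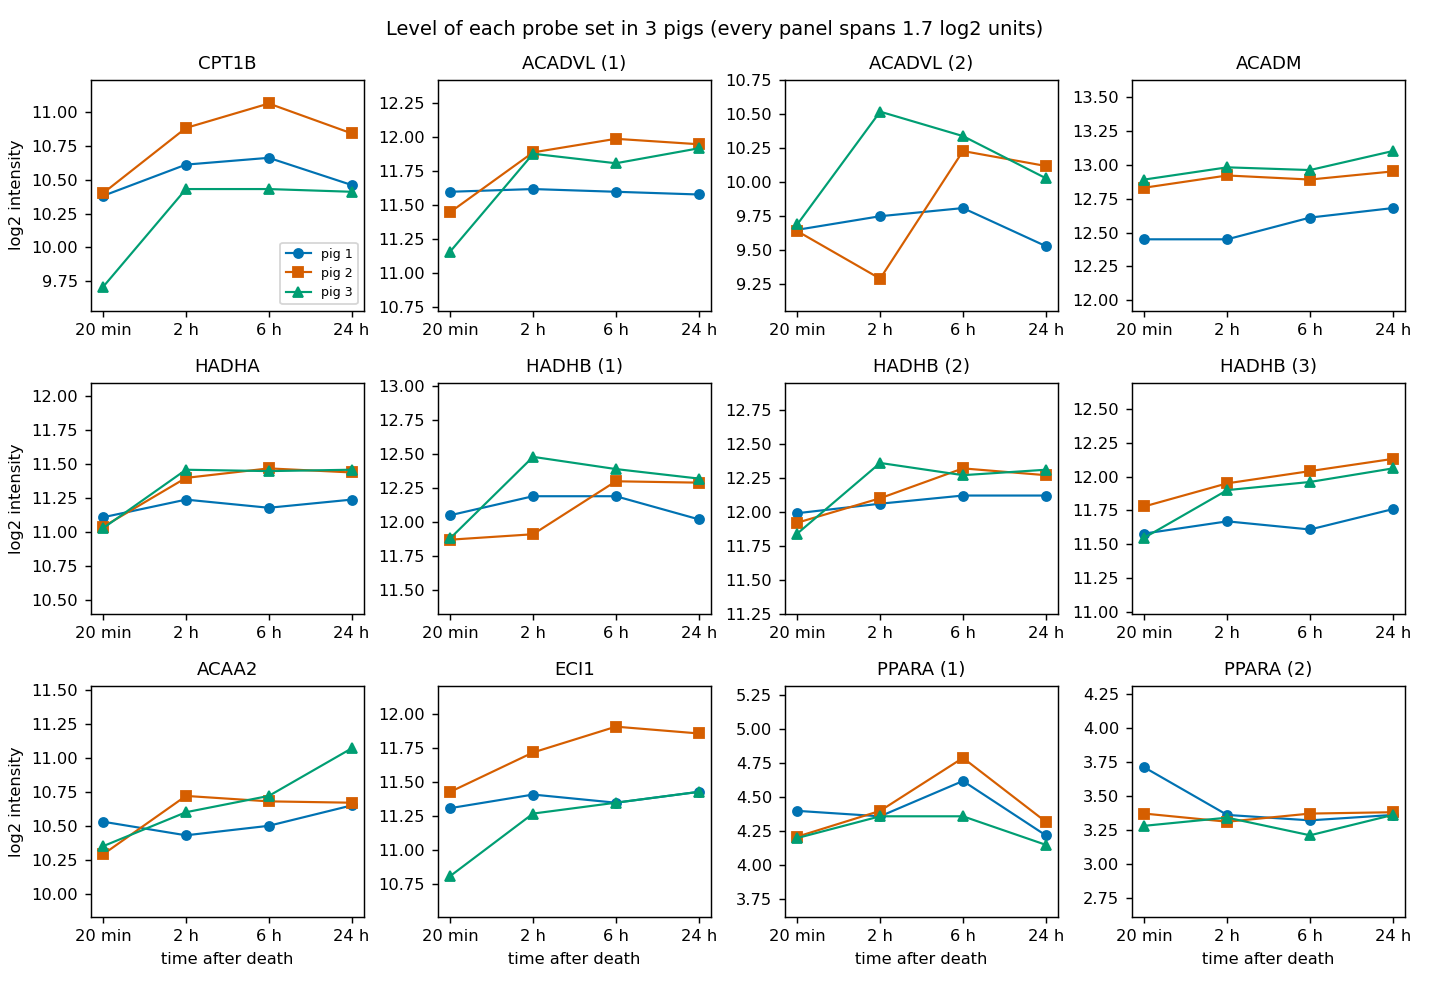
The log2 intensity of each of the 12 probe sets (vertical axis, every panel spanning the same range) at the 4 times after death (horizontal axis), with a line for each of the 3 pigs. CPT1B in pig 3 stood at 9.71 at 20 min and between 10.41 and 10.43 afterwards, while pig 1 stayed between 11.58 and 11.62 in the first ACADVL probe set at all 4 times.

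CPT1B (NCBI gene 399528), the entry step, measured 10.38, 10.40 and 9.71 at 20 min in pigs 1, 2 and 3. It measured 10.61, 10.88 and 10.43 at 2 h, 10.66, 11.06 and 10.43 at 6 h, and 10.46, 10.84 and 10.41 at 24 h. Every later array lay above every 20 min array, so the groups did not overlap at any of the 3 later times. Of all probe sets, 4.2%, 4.24% and 6.99% were higher with no overlap at 2 h, 6 h and 24 h. The margin at 24 h was very small (10.41 in pig 3 against 10.40 in pig 2 at 20 min). The log2 change from 20 min was 0.48 ± 0.25 at 2 h, 0.55 ± 0.24 at 6 h and 0.41 ± 0.31 at 24 h (mean ± SD of the changes of 3 pigs, as for all changes below). At 6 h this is a 1.47-fold higher signal, with a 95% interval of 1.24 to 1.73. CPT1B ranked 36th of 23999 by p at 2 h, 14th at 6 h and 340th at 24 h. However, its limma adjusted p was 0.579 at 2 h, 0.454 at 6 h and 0.219 at 24 h. It was higher in 3 of 3 pigs at each time, with the smallest change in pig 1 (0.08 at 24 h) and 0.70 in pig 3 at that time. Without pig 3 the 24 h change was 0.26.

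ACADVL (NCBI gene 100520636) encodes the very-long-chain acyl-CoA dehydrogenase, which opens the cycle for long chains at the inner membrane. Its brighter probe set measured 11.60, 11.45 and 11.16 at 20 min in pigs 1, 2 and 3, 11.62, 11.89 and 11.88 at 2 h, 11.60, 11.99 and 11.81 at 6 h, and 11.58, 11.95 and 11.92 at 24 h. Pig 1 stayed within a narrow range over the whole day, whereas pigs 2 and 3 were higher at each later time than at 20 min. The change was 0.39 ± 0.35 at 2 h, 0.40 ± 0.35 at 6 h and 0.41 ± 0.40 at 24 h, with limma adjusted p of 0.587, 0.498 and 0.260. Without the 20 min array of pig 3 it was 0.24, 0.24 and 0.26, and without pig 1 it was 0.58, 0.60 and 0.63. The other ACADVL probe set ran between 9.29 and 10.52 and was less steady, with a 2 h array of pig 2 below all others. Its changes were 0.19 ± 0.60, 0.46 ± 0.27 and 0.23 ± 0.31, the first of them -0.13 without pig 3, and it followed the first with r = 0.59 over 12 arrays after each pig's mean was taken off.

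ACADM (NCBI gene 397104), the medium-chain acyl-CoA dehydrogenase, takes over once the chain has been shortened. It measured 12.45, 12.83 and 12.89 at 20 min in pigs 1, 2 and 3, 12.45, 12.92 and 12.98 at 2 h, 12.61, 12.89 and 12.96 at 6 h, and 12.68, 12.95 and 13.10 at 24 h. Pig 1 was the lowest at all 4 times. Its step from 20 min to 24 h was 0.23, against 0.11 in pig 2 and 0.20 in pig 3. The change was 0.06 ± 0.04 at 2 h, 0.09 ± 0.06 at 6 h and 0.18 ± 0.06 at 24 h, with 3 of 3 pigs higher each time and limma adjusted p of 0.85, 0.723 and 0.351. ACADM had the lowest change of the 7 enzyme genes at each time. At 24 h its 95% interval ran from 0.02 to 0.35, and whether it differed from the other enzymes was not tested.

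HADHA (NCBI gene 397012) and HADHB (NCBI gene 397017) encode the alpha and beta subunits of the mitochondrial trifunctional protein, which carries out the last 3 steps of the cycle on long chains. HADHA measured 11.11, 11.04 and 11.03 at 20 min in pigs 1, 2 and 3, 11.24, 11.40 and 11.46 at 2 h, 11.18, 11.47 and 11.45 at 6 h, and 11.24, 11.44 and 11.46 at 24 h. The 20 min arrays were close together, with an SD of 0.04, and all 9 later arrays lay above them. Such a separation was found for 4.2%, 4.24% and 6.99% of all probe sets at 2 h, 6 h and 24 h. The change was 0.31 ± 0.16 at 2 h, 0.30 ± 0.21 at 6 h and 0.32 ± 0.17 at 24 h, 1.25-fold at 24 h with a 95% interval of 1.09 to 1.43. Its limma adjusted p was 0.579, 0.488 and 0.223 at these times.

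The brightest HADHB probe set measured 12.05, 11.87 and 11.88 at 20 min in pigs 1, 2 and 3, 12.19, 11.91 and 12.48 at 2 h, 12.19, 12.30 and 12.39 at 6 h, and 12.02, 12.29 and 12.32 at 24 h. Only the 6 h arrays were all above the 20 min arrays, and 4.24% of all probe sets had such a separation at 6 h. Its change was 0.26 ± 0.29, 0.36 ± 0.20 and 0.27 ± 0.27 at 2 h, 6 h and 24 h, and without the 20 min array of pig 3 it was 0.15, 0.25 and 0.16. The second HADHB probe set had changes of 0.25 ± 0.23, 0.32 ± 0.16 and 0.32 ± 0.17, and the third of 0.20 ± 0.13, 0.23 ± 0.19 and 0.35 ± 0.16. The 3 readings of HADHB thus gave like sizes, and after removal of each pig's mean they correlated with one another over 12 arrays with r of 0.77, 0.91 and 0.92. The third measured 11.58, 11.78 and 11.55 at 20 min in pigs 1, 2 and 3, 11.67, 11.95 and 11.90 at 2 h, 11.61, 12.04 and 11.96 at 6 h, and 11.76, 12.13 and 12.06 at 24 h. It was higher in 3 of 3 pigs at each later time, with pig 1 low throughout after 20 min, and had the smallest limma adjusted p among the members at 24 h, 0.198.

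ACAA2 (NCBI gene 100312959), the mitochondrial 3-ketoacyl-CoA thiolase, cleaves off acetyl-CoA from medium and short chains. It measured 10.53, 10.29 and 10.35 at 20 min in pigs 1, 2 and 3, 10.43, 10.72 and 10.60 at 2 h, 10.50, 10.68 and 10.72 at 6 h, and 10.65, 10.67 and 11.07 at 24 h. In pig 1 it was lower at 2 h and 6 h than at 20 min, and only at 24 h were all 3 arrays above all 20 min arrays. At 24 h 6.99% of all probe sets had such a separation. The change was 0.20 ± 0.27, 0.24 ± 0.24 and 0.41 ± 0.30, with limma adjusted p of 0.670, 0.584 and 0.241. Leaving out pig 3, whose 24 h array was the highest, gave 0.25 at 24 h, and leaving out pig 2 gave 0.08 at 2 h.

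ECI1 (NCBI gene 100738177) encodes the enoyl-CoA isomerase that moves the double bond of unsaturated fatty acids into a form the cycle can use. It measured 11.31, 11.43 and 10.81 at 20 min in pigs 1, 2 and 3, 11.41, 11.72 and 11.27 at 2 h, 11.35, 11.91 and 11.35 at 6 h, and 11.43, 11.86 and 11.43 at 24 h. All pigs were higher at each later time, but the pigs lay so far apart that the groups overlapped. The change was 0.28 ± 0.18, 0.35 ± 0.27 and 0.39 ± 0.25, with limma adjusted p of 0.608, 0.488 and 0.219. At 2 h it was 0.18 without the 20 min array of pig 3.

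**Figure D2:**
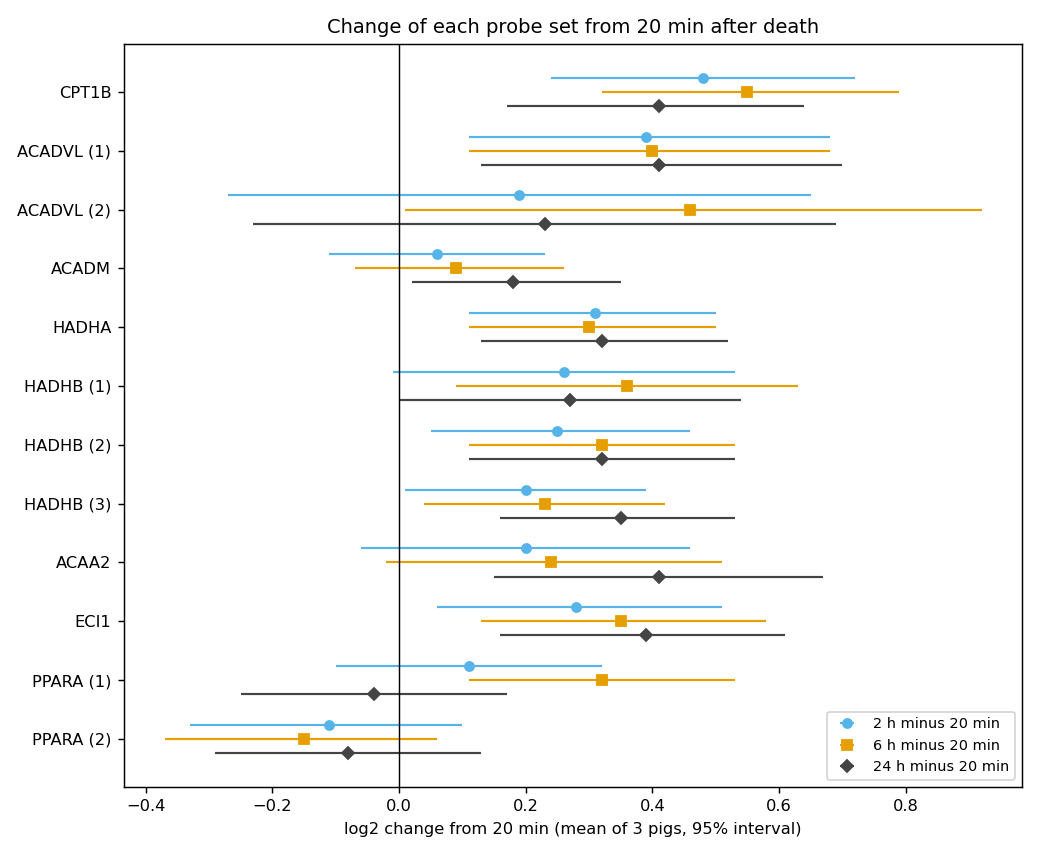
The log2 change of each probe set from 20 min (horizontal axis, mean of 3 pigs) at 2 h, 6 h and 24 h, with limma's 95% interval before adjustment for the number of probe sets tested. The enzyme probe sets lie to the right of 0 at all 3 times, from 0.06 for ACADM to 0.55 for CPT1B, while the first PPARA probe set lies at 0.11, 0.32 and -0.04 and the second to the left of 0 at all 3 times.

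Counted over the members, 0 of 12 probe sets passed limma's adjusted threshold at 2 h, 6 h or 24 h, where 0%, 0% and 0.00417% of all tested probe sets passed. The smallest adjusted p of any member was 0.579, 0.454 and 0.198 at these times. At an unadjusted p under 0.05, 6 of the 10 enzyme probe sets were higher and 0 lower at 2 h, 8 and 0 at 6 h, and 9 and 0 at 24 h. Of all tested probe sets, 4.01%, 4.29% and 6.41% were higher and 3.94%, 4.54% and 6.67% lower by that criterion at these times. Higher values in 3 of 3 pigs were found for 8, 9 and 7 enzyme probe sets at 2 h, 6 h and 24 h, where 13.8%, 15.4% and 17.8% of all were. The later arrays lay wholly above the 20 min arrays for 4, 6 and 4 enzyme probe sets, where 4.2%, 4.24% and 6.99% of all did. Some of these margins were very small. The first ACADVL probe set in pig 1 read 11.60 at both 20 min and 6 h after rounding. CPT1B read 10.41 in pig 3 at 24 h, against 10.40 in pig 2 at 20 min. With 1 probe set for each of the 7 enzyme genes, 4, 5 and 7 genes were higher at an unadjusted p under 0.05 at these times. Of all genes, 6.19% were at 24 h. After removal of each pig's mean, pairs of enzyme genes correlated over 12 arrays with a median r of 0.83, so they are not separate readings. Without the dimmest 40% of probe sets, the share of all that was higher by the unadjusted criterion was 4.26%, 5.1% and 6.19%. The 3 comparisons use the same 20 min arrays, so their counts are not separate evidence. The members were also chosen with earlier results of these data known, so their counts beside the shares of all are descriptions only.

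These counts were lower in several fits with a pig or an array left out, and so was the share of all probe sets. Without pig 3, the enzyme probe sets higher at an unadjusted p under 0.05 numbered 1 of 10 at 2 h, 2 at 6 h and 2 at 24 h, where 2.26%, 3.16% and 3.27% of all probe sets were. The median enzyme change was then 0.15, 0.26 and 0.25. Without the 20 min array of pig 3 alone the counts were 2, 4 and 6, where 2.75%, 2.93% and 3.7% of all probe sets were higher. Without pig 2 they were 4, 3 and 6, where 3%, 2.02% and 4.85% were. With pig left out of the model (no replicate block) they were 4, 5 and 5, where 1.71%, 1.83% and 3.39% were. At 2 h the count was also 3 (2.67% of all) when the 20 min array of pig 2 was left out and 2 (2.66%) when the 2 h array of pig 3 was. At 6 h it was 5 (2.45%) when the 6 h array of pig 2 was left out. Without the 20 min array of pig 1, members passed the adjusted limma threshold, namely CPT1B at 2 h (0.62, adjusted p = 0.0446), CPT1B and the brighter ACADVL probe set at 6 h (0.70 and 0.60, adjusted p = 0.0293 and 0.0434) and that ACADVL probe set at 24 h (0.61, adjusted p = 0.0430). In that fit 29, 46 and 40 of all probe sets passed at 2 h, 6 h and 24 h. Over all alternatives tried, the adjusted p ran from 0.0446 to 0.999 for CPT1B at 2 h and from 0.0293 to 0.999 at 6 h, and for ACADVL from 0.0434 to 0.999 at 6 h and from 0.0430 to 0.805 at 24 h.

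The 20 min array was the lowest of the pig's 4 arrays in 3 of 3 pigs for 6 of the 10 enzyme probe sets, against 3.42% of all probe sets. This held for CPT1B, ACADM, HADHA, ECI1 and the second and the third HADHB probe sets. By pig, the 20 min array was lowest for 6 of the 10 enzyme probe sets in pig 1, 9 in pig 2 and 10 in pig 3, where 23.0%, 29.5% and 31.1% of all probe sets had that pattern. Between later times the median enzyme change was 0.06 for 6 h against 2 h, 0.05 for 24 h against 2 h and 0.02 for 24 h against 6 h, and single values ran from -0.23 (the second ACADVL probe set, 24 h against 6 h) to 0.27 (the same, 6 h against 2 h). Whether these changes differ from those against 20 min was not tested. At an unadjusted p under 0.05, 0 enzyme probe sets were higher or lower in any of these 3 comparisons by limma, and 0 passed after adjustment (0% of all probe sets passed). The shares of all probe sets past the unadjusted criterion were 0.758% higher and 1.5% lower for 6 h against 2 h, 2.38% and 2.85% for 24 h against 2 h, and 4.28% and 3.80% for 24 h against 6 h. For CPT1B the change at 24 h against 6 h was -0.15 (95% interval from -0.39 to 0.09), and for ACAA2 it was 0.17 (from -0.10 to 0.43).

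The sizes of these changes were unlike in the 3 pigs. Over the 7 enzyme genes the mean change in pigs 1, 2 and 3 was 0.08, 0.30 and 0.47 at 2 h, 0.09, 0.43 and 0.47 at 6 h, and 0.09, 0.38 and 0.55 at 24 h. With 1 portion per pig and time, a difference in response between pigs cannot be tested.

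Markers of fibre type and of other cells also had values that were unlike in the 3 pigs. Of 10 slow-fibre markers 9 were on the array, and 7 had a higher mean at 24 h, where 47.1% of all genes had. At 24 h 4 of these markers were higher and 0 lower at an unadjusted limma p under 0.05, where 6.19% and 8.72% of all genes were. The median change of the slow-fibre markers was 0.15 at 2 h, 0.15 at 6 h and 0.15 at 24 h. Their list mean had a change of -0.13 in pig 1, 0.25 in pig 2 and 0.27 in pig 3 at 24 h, and of -0.05, 0.18 and 0.29 at 2 h. It ranged from 12.33 to 12.39 over the 24 h arrays, against 12.12 to 12.47 at 20 min. The 6 fast-fibre markers on the array had a list mean change of 0.01, -0.03 and -0.11 in these pigs at 24 h, and list means from 14.03 to 14.10 at 24 h, against 14.08 to 14.14 at 20 min.

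Fibroblast and matrix markers (7 of 10 on the array, 1 with a higher mean) had list mean changes of 0.08, -0.04 and -0.52 in pigs 1, 2 and 3 at 24 h, with list means from 8.46 to 8.81, against 8.49 to 9.22 at 20 min. Macrophage and leukocyte markers (8 of 11, 3 higher) had changes of -0.31, -0.33 and -1.25, with list means from 5.48 to 6.05, against 6.17 to 6.73. Adipocyte markers (8 of 10, 4 higher) had changes of -0.08, -0.12 and -0.33, with list means from 6.92 to 7.07, against 7.0 to 7.4. The remaining markers had list means from 7.37 to 7.79 at 24 h, against 7.44 to 7.57 at 20 min for endothelium, from 9.63 to 10.06, against 9.64 to 9.85 for smooth muscle and pericytes, and from 6.15 to 6.64, against 6.17 to 6.49 for erythroid cells. Pig 3 thus had the largest enzyme changes and also the lowest fibroblast, macrophage and adipocyte marker changes. As a reading of RNA quality, the signal at the 3′ end less that at the 5′ end was taken for 3 control transcripts on the array. At 20 min in pigs 1, 2 and 3 this difference was 0.48, 0.63 and 0.23 for EF1A and 2.37, 2.23 and 2.33 for actin. For GAPDH it was -0.23, -0.22 and -0.20. For EF1A its change from 20 min in pigs 1, 2 and 3 was 0.08, 0.49 and 0.26 at 2 h, 0.06, -0.04 and 0.21 at 6 h, and 0.38, -0.01 and 0.47 at 24 h. For actin it was -0.22, 0.31 and -0.19, then -0.34, -0.20 and -0.01, and then 0.09, -0.23 and -0.04. For GAPDH it lay between -0.09 and 0.06 at all 3 times. The controls thus gave unlike readings. The part of fibre mix, other cells or RNA quality in the enzyme changes was not tested.

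Some enzymes passed the test between pigs, although none passed over time. In the same model, 4 of 12 member probe sets differed between the 3 pigs (limma's F test, adjusted p under the threshold), which is 4 of the 10 enzyme probe sets, where 19.9% of all probe sets did. These were ACADM (adjusted p = 0.00184), ECI1 (0.00498), CPT1B (0.00524) and the third HADHB probe set (0.0239). The means of a pig's 4 arrays were 12.55, 12.90 and 12.98 for ACADM in pigs 1, 2 and 3, 11.37, 11.73 and 11.21 for ECI1, and 10.53, 10.80 and 10.24 for CPT1B. Pig 2 had the highest means of CPT1B and ECI1 and pig 3 the lowest, whereas ACADM was lowest in pig 1. The count was 2 without pig 1, 2 without pig 2 and 3 without pig 3, where 7.8%, 9.03% and 13.1% of all probe sets passed. The 4 portions of a pig come from 1 animal, so the test is about these 3 animals.

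Over the 12 arrays, time took between 10.7% (ACADM) and 66.7% (the second HADHB probe set) of the variation of an enzyme probe set. This share was above the median of all probe sets, 21.0%, for 9 of 10. Pig took more than time for 5 of the 10, up to 86.0% for ACADM. Over all probe sets the median share of pig, 31.8%, was also above that of time. How many of all probe sets had a larger share of pig than of time was not counted. In the F test over the 4 times, 0 of 12 members passed after adjustment, where 0.00417% of all probe sets did, and 8 of 12 had an unadjusted p under 0.05, where 8.22% of all did. CPT1B had the lowest p (0.00136, limma adjusted p = 0.535).

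**Figure D3:**
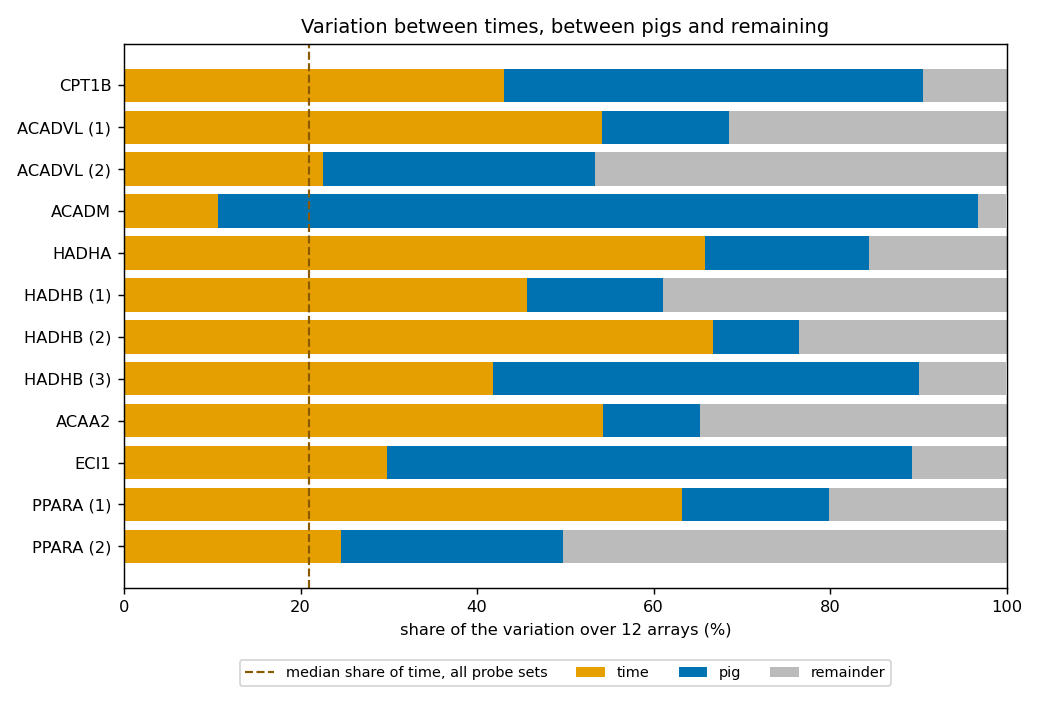
The share of the variation of each probe set over the 12 arrays (horizontal axis, percent) that lay between times, between pigs and in the remainder; the dashed line marks the median share of time over all tested probe sets, 21.0%. The second HADHB probe set (66.7% time) and ACADM (86.0% pig) stand at opposite ends among the enzymes.

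PPARA (NCBI gene 397239) was read by 2 dim probe sets that did not follow each other. The first was brighter than 27.3% of all probe sets and the second than 8.91%, and the files give no detection calls, so how far either lay above background is not known. The first measured 4.40, 4.21 and 4.20 at 20 min in pigs 1, 2 and 3, 4.36, 4.40 and 4.36 at 2 h, 4.62, 4.79 and 4.36 at 6 h, and 4.22, 4.32 and 4.15 at 24 h. Pigs 1 and 2 had their highest value at 6 h and pig 3 stood at 4.36 at both 2 h and 6 h, and all 24 h arrays were below all 6 h arrays.

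The change of this PPARA probe set was 0.11 ± 0.12 at 2 h, 0.32 ± 0.22 at 6 h and -0.04 ± 0.14 at 24 h, each against 20 min. At 6 h it was higher in 3 of 3 pigs, as were 15.4% of all probe sets (limma adjusted p = 0.488), and without pig 2 its change was 0.19. For 24 h against 6 h the change was -0.36 ± 0.14, lower in 3 of 3 pigs as were 15.7% of all probe sets, with no overlap of the groups, which 3.99% of all probe sets shared in that direction (unadjusted p = 0.00302, limma adjusted p = 0.572). The second probe set measured 3.71, 3.37 and 3.28 at 20 min and between 3.21 and 3.38 on the 9 later arrays. Its changes were -0.11 ± 0.21, -0.15 ± 0.20 and -0.08 ± 0.23 at 2 h, 6 h and 24 h, and 0.07 ± 0.07 for 24 h against 6 h. At 6 h this second probe set was lower in 3 of 3 pigs, as were 16.6% of all probe sets, although in pig 2 by less than the rounding. These probe sets correlated with r = -0.11 over the 12 arrays after removal of each pig's mean, so the 6 h value of PPARA rests on 1 of its 2 readings and leans on pig 2.

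After removal of each pig's mean, the 21 pairs of enzyme genes correlated with r between 0.27 (ACADM with HADHB) and 0.97 (ECI1 with HADHA), with a median of 0.83, over 12 arrays. PPARA's brighter probe set correlated with the 7 enzyme genes with r between -0.07 (ACADM) and 0.59 (CPT1B), with a median of 0.40. The 2 ranges overlap, whether they differ was not tested, and the second PPARA probe set did not follow the first. These are descriptions, since the points share arrays and pigs. Each pair of genes also shares the 20 min arrays.

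Among 10057 other probe sets with 1 symbol, those most like the mean of the 7 enzyme genes by the same measure were ECI2, SMTN, GOT2 and ME3, each with r = 0.98, and IDH2 with r = 0.97. ECI2 is a second enoyl-CoA isomerase, and its change was 0.28 ± 0.27 at 2 h, 0.34 ± 0.27 at 6 h and 0.35 ± 0.33 at 24 h. GOT2, the mitochondrial aspartate aminotransferase, had changes of 0.14 ± 0.14, 0.19 ± 0.12 and 0.20 ± 0.12, and IDH2, the mitochondrial NADP-dependent isocitrate dehydrogenase, of 0.27 ± 0.23, 0.29 ± 0.23 and 0.31 ± 0.17. ME3, a mitochondrial malic enzyme, had changes of 0.43 ± 0.34, 0.42 ± 0.43 and 0.47 ± 0.39. SMTN, a cytoskeletal protein known from smooth muscle, had changes of 0.33 ± 0.24, 0.40 ± 0.24 and 0.39 ± 0.21. Those most like PPARA's brighter probe set were LCP1 (r = 0.93), ENTPD4, IGFBP2 and C7H6orf106 (r = 0.92 each) and ALKBH5 (r = 0.90). LCP1, an actin-bundling protein of leukocytes, had changes of 0.17 ± 0.07, 0.35 ± 0.22 and 0.11 ± 0.13 at the 3 times. LCP1 was itself dim, with a mean level of 4.19 beside 4.37 for that PPARA probe set. Both groups of genes were picked as the highest of 10057 correlations, and none of these correlations was tested.

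The rest of the oxidation machinery was read through lists with 1 probe set a gene, and 0 genes of any list passed the adjusted limma threshold at 2 h, 6 h or 24 h against 20 min, where at most 0.0148% of all genes passed (at 24 h). In the list of other mitochondrial beta-oxidation genes, 15 of 16 were on the array, and at 24 h 13 of them had higher means and 8 were higher in 3 of 3 pigs, where 47.1% and 16.2% of all genes were. Their median change was 0.14 at 2 h, 0.16 at 6 h and 0.16 at 24 h, and 5 were higher and 0 lower at an unadjusted p under 0.05 at 24 h, where 6.19% and 8.72% of all genes were. HADH, which handles short and medium chains, had a change of 0.17 ± 0.27 at 24 h and the hydratase ECHS1 of 0.11 ± 0.20. ETFDH and ETFA, which pass the electrons of the first step to the respiratory chain, had changes of 0.26 ± 0.20 and 0.16 ± 0.05. The mean change of this list at 24 h was 0.02, 0.20 and 0.24 in pigs 1, 2 and 3, so that pig 1 was again the lowest.

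Genes that activate fatty acids and run the carnitine shuttle beside CPT1B had small median changes, of 0 at 2 h, 0.04 at 6 h and 0.07 at 24 h. Single genes went both ways. At 2 h 3 were higher and 3 lower in 3 of 3 pigs, where 13.8% and 14% of all probe sets were. At 6 h 2 were higher and 3 lower in 3 of 3 pigs, where 15.4% and 16.6% of all probe sets were. All 11 listed were on the array, and 9 had higher means at 24 h, where 47.1% of all genes had. At that time 3 were higher and 0 lower at an unadjusted p under 0.05, where 6.19% and 8.72% of all genes were. ACSL1, an acyl-CoA synthetase abundant in muscle, was the brightest, with a change of 0.39 ± 0.19 (limma adjusted p = 0.193). CRAT, the carnitine acetyltransferase, had a change of 0.07 ± 0.11, the carnitine carrier SLC25A20 of 0.11 ± 0.06, and ACSL4, another synthetase, of 0.02 ± 0.20.

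Peroxisomal beta-oxidation, which shortens the longest chains outside mitochondria, had 6 of 13 genes on the array. Their median change was -0.06 at 2 h, 0.01 at 6 h and 0.12 at 24 h. At 24 h 1 was higher and 0 lower at an unadjusted p under 0.05, where 6.19% and 8.72% of all genes were. SCP2 had a change of 0.11 ± 0.09 at 24 h, the transporter ABCD3 of 0.15 ± 0.41, the bifunctional enzyme HSD17B4 of 0.13 ± 0.01 and the thiolase ACAA1 of -0.18 ± 0.21.

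Of 20 PPAR partners and co-regulators, 12 were on the array, and at 24 h 5 had higher means, where 47.1% of all genes had. Their median change was -0.04. At 24 h 0 were higher and 1 lower at an unadjusted p under 0.05, where 6.19% and 8.72% of all genes were. The coactivator PPARGC1A, known to drive oxidative genes in muscle, had a change of -0.32 ± 0.72, LPIN1 of -0.05 ± 0.10, the corepressor NCOR1 of -0.02 ± 0.05 and the coactivator NCOA1 of -0.21 ± 0.06. Of known PPARA target genes other than the members, 12 of 20 were on the array, with a median change of 0.14 at 24 h. At that time 11 had higher means and 7 were higher in 3 of 3 pigs, where 47.1% and 16.2% of all genes were. At an unadjusted p under 0.05, 4 were higher and 0 lower, where 6.19% and 8.72% of all genes were. The carrier protein FABP3 had a change of 0.40 ± 0.41, whereas that of PDK4, which restrains glucose oxidation, was 0.03 ± 0.09 and that of TXNIP -0.05 ± 0.27. ACSL1, CPT2, SLC25A20 and HADH stand in this list and in those above. ACSL1 and CPT2 are thus counted as higher at an unadjusted p under 0.05 both here and in the carnitine shuttle list.

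CPT1B is held back by malonyl-CoA, whose level AMP-activated protein kinase lowers. Of 11 genes of this control 9 were on the array, with a median change of 0.05 at 2 h, 0.03 at 6 h and -0.05 at 24 h. At 24 h 0 were higher and 1 lower at an unadjusted p under 0.05, where 6.19% and 8.72% of all genes were. The lower gene was PRKAA2, the catalytic alpha subunit of muscle, at -0.33 ± 0.09 (limma adjusted p = 0.222). The other bright genes were PRKAG1 at 0.22 ± 0.28, PRKAB2 at -0.16 ± 0.16 and the upstream kinase STK11 at -0.05 ± 0.08.

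**Figure D4:**
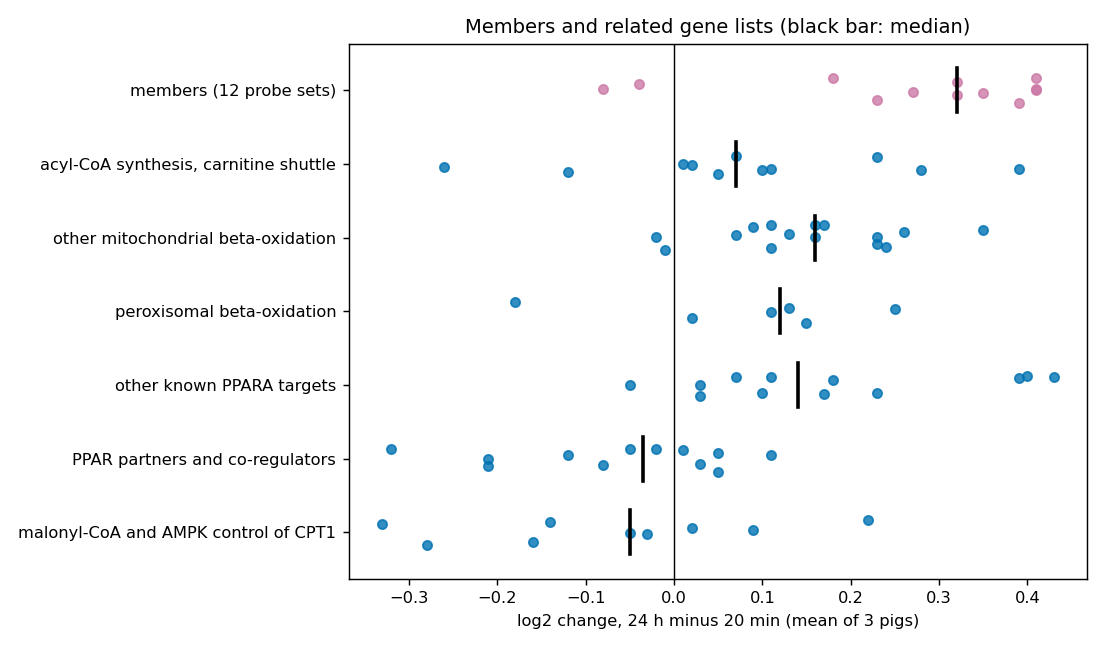
The log2 change at 24 h against 20 min (horizontal axis, mean of 3 pigs) of the 12 member probe sets in pink and of the genes of 6 related lists in blue, 1 point a probe set, with the median of each row as a black bar. The members have a median of 0.32, the other mitochondrial beta-oxidation genes 0.16 and the genes of malonyl-CoA and AMPK control -0.05.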

How the data were processed

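RNA of each 3 to 5 g portion was labelled with biotin and hybridised to 1 Affymetrix porcine array, per the labels' protocols. The authors deposited log2 intensities for each probe set after RMA with affy, per the submitters' processing notes, for which versions and parameters were not given in the sources used. Of 24123 probe sets, 124 controls were left out, and 23999 were tested with no filter on level. The 2016 platform annotation gave 10099 probe sets 1 symbol, 198 several and 13826 none. All 12 member probe sets matched the RefSeq gene table of Sscrofa11.1 by gene ID. The array has no named build, so coordinates are left out.

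A single limma model (limma 3.58.1 and statmod 1.5.0 in R 4.3.3) was fitted to the 12 arrays, with time and pig as fixed terms, 6 residual and 5.67 prior degrees of freedom and two-sided tests. As a check of the code, the fit was run on simulated data with independent noise. That check set a level of recovery only for changes larger than those of the members. The design text says that the same pigs were sampled at each time, and for the 18 same-pig pairs of arrays the deviations from the time means had correlations from 0.409 to 0.656.

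The members and lists were chosen with earlier results of these data known. In lists each gene was represented by its brightest probe set, and up to 4 genes a list were named by brightness. Genes most like the members were the 5 with the highest correlation over arrays centred by pig.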

Additional observations from a re-analysis of the deposited data

How the results depend on the processing

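Of the members, 0 passed the adjusted limma threshold in any comparison of times with no replicate block, with the pigs as random effects, without the dimmest 40% of probe sets, with cyclic loess, centred on the brightest 10%, with a trended and robust prior, with array weights, with the arrays of the 2 times alone or with 1 probe set per gene. Without the dimmest 40% of probe sets, neither PPARA probe set was tested. With 1 probe set per gene, only the brightest probe set of each member gene was. The replicate block changed no call of a member. With single arrays or pigs left out, the number of members past the threshold ran from 0 to 1 at 2 h against 20 min, from 0 to 2 at 6 h and from 0 to 1 at 24 h, above 0 in each only without the 20 min array of pig 1. For the test between pigs it ran from 2 to 5, against 4 with all arrays. Of 282 log2 changes recomputed in each comparison with 20 min, 3 changed sign at 2 h, 0 at 6 h and 5 at 24 h, all of them in PPARA or the second ACADVL probe set. Other scalings moved the median of all probe sets by at most 0.039. The number of arrays limits the precision, and signal over background is not known. The test between pigs has no form without pig as a fixed term, and it and the test over all 4 times were not run on the arrays of 2 times.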
